A study of Mus musculus with 9 samples.

Results

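Oral tumors of mice labelled p53R172H/+ were compared with oral tumors labelled p53-/- by microarray, with 3 tumors in each group. These are 6 of the 9 arrays of the series, and they were chosen by their titles alone. The other 3 arrays are tumors labelled p53R172H/-. All 9 tumors shared the other parts of the model, since the series describes oral tumors that arose with an activated Ras and an altered p53 in mice 1 year old. The p53R172H/+ mice carried the missense allele beside a wild-type allele, the p53-/- mice had lost p53 on both alleles, and the p53R172H/- mice carried the missense allele beside a lost one. The mouse names begin with "K-", which the labels do not spell out, and the promoter or cell type that drives the Ras and p53 alleles was not given. Whether the p53R172H/+ tumors kept their wild-type allele was not checked. Nothing in the labels places the 3 tumors of a group in separate animals, and p-values therefore measure only the spread between these samples, which may be technical.

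The p53 protein is a transcription factor that switches on genes of cell cycle arrest and cell death after damage. The R172H change lies in its DNA-binding domain and alters the fold of that domain, so the mutant protein binds its usual target sites poorly. It often accumulates in tumor cells, and it can act on a wild-type partner because p53 works as a tetramer. Activated Ras signals through the kinases RAF, MEK and ERK, and ERK output is held in check by proteins that its own signal induces, among them the Sprouty and dual-specificity phosphatase families.

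Signals are MAS5 probe set intensities, called signal units below, and a log2 fold change is p53R172H/+ minus p53-/- throughout. Levels of different genes are not set against each other, because each probe set has its own brightness. The 9 arrays had medians of 109 to 123 signal units. Across genes, which are not independent replicates, log2 signals of the p53R172H/+ tumors differed from each other by a root mean square of 0.290 to 0.416, those of the p53-/- tumors by 0.284 to 0.400, and those of tumors of different groups by 0.283 to 0.450. These ranges overlap. The widest pair was of different groups (p53-/- tumor 2 and p53R172H/+ tumor 1), and so was the closest (p53-/- tumor 3 and p53R172H/+ tumor 3). Keratins of stratified squamous epithelium were bright in all 6 tumors: the basal keratins Krt5 and Krt14 were at 10434 to 12152 and 19908 to 22680 signal units, Krt13, a keratin of the oral mucosa, at 9692 to 19417, and E-cadherin (Cdh1) at 3659 to 4111. As tumors were measured whole, fewer cells of a type and less RNA per cell cannot be told apart.

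Of 12167 genes tested, 0 passed an adjusted p of 0.05 (0% called, limma with Benjamini-Hochberg adjustment), and 1259 had an unadjusted p under 0.05, 578 of them higher in p53R172H/+ tumors and 681 lower. Genes are therefore described below by their values, with no gene counted as changed. A gene is called separated where the lowest tumor of 1 group was above the highest tumor of the other. By that measure 862 genes (7.08%) were separated and higher in p53R172H/+ tumors, and 1078 (8.86%) were separated and lower. Only 20 of the higher and 17 of the lower separated genes differed 2-fold or more. The median log2 fold change over all genes tested was -0.03, and 43.9% of genes were higher on average.

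The gene with the smallest p was Spry2, a Sprouty protein that inhibits receptor tyrosine kinase signalling to ERK. It was at 176, 213 and 204 signal units in the p53-/- tumors and at 391, 376 and 392 in the p53R172H/+ tumors. The groups lay far apart relative to their own spread, with a log2 fold change of 0.97 ± 0.12 (SE, adjusted p = 0.159 by limma), and its other probe set was at 0.46. Bnc1, a zinc finger transcription factor of basal keratinocytes, was at 329, 306 and 352 signal units in p53-/- and at 694, 635 and 522 in p53R172H/+ tumors (log2 fold change 0.90 ± 0.14 SE). The fold of Col12a1, a collagen that decorates the surface of collagen fibrils, was larger and its spread wider. This gene was at 347, 194 and 551 signal units in p53-/- tumors and at 1711, 1961 and 1169 in p53R172H/+ tumors (2.24 ± 0.35 SE, 4.73-fold). Its 3 dimmer probe sets gave 0.82, -0.25 and 0.00, the last with all 9 signals under the floor to which low values were raised.

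The next higher genes by p had smaller folds and narrow spreads. Prkaa1, a catalytic subunit of the energy sensor AMPK, was at 117, 138 and 155 signal units in p53-/- and at 247, 225 and 215 in p53R172H/+ tumors (0.75 ± 0.13 SE). Mta2, a subunit of the NuRD chromatin remodelling complex, was at 442, 440 and 485 against 640, 637 and 642 (0.49 ± 0.08 SE). Several were genes of RNA processing. Nudt21, a subunit of the cleavage factor that selects polyadenylation sites, was at 0.40 ± 0.07 (SE), although its 3 other probe sets were at -0.24, 0.01 and -0.11. Prpf39, a splicing factor, was at 0.76 ± 0.13 (SE), with others at 0.35 and -0.04. Syncrip, an RNA-binding protein of the hnRNP family, was at 0.38 ± 0.08 (SE), with others at -0.003, 0.32, 0.31 and 0.09. Ube2q2, a ubiquitin-conjugating enzyme, was at 0.68 ± 0.14 (SE). Etv3, an ETS family repressor, was at 0.56 ± 0.11 (SE), with others at 0.73, -0.10 and 0.19. The remaining 2 of the 12 higher genes, Dusp6 and the chemokine receptor gene Ccr1, are described with their groups.

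Among the lower genes Per2, a repressor of the circadian clock, had the smallest p. It was at 248, 305 and 252 signal units in p53-/- tumors and at 161, 162 and 174 in p53R172H/+ tumors (-0.69 ± 0.11 SE), and its 2 other probe sets were also lower, at -1.27 and -1.11. Pnpla3, a lipase and acyltransferase of triglyceride metabolism, was at 450, 435 and 381 signal units in p53-/- and at 244, 235 and 226 in p53R172H/+ tumors (-0.84 ± 0.16 SE). Ccr6, the receptor of the chemokine CCL20, was at 216, 207 and 186 against 133, 111 and 142 (-0.66 ± 0.12 SE). None of these 3 genes had overlapping groups. Gltp, which moves glycolipids between membranes, had a small difference on a bright signal, at 7914, 8131 and 8292 signal units against 6511, 6435 and 6263 (-0.34 ± 0.07 SE).

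The other 8 of the 12 lower genes had log2 fold changes between -0.96 and -0.39. Slc1a7, a glutamate transporter, was at -0.96 ± 0.21 (SE) and Cntnap1, a membrane protein of myelinated axons, at -0.70 ± 0.12 (SE). Dusp16, a dual-specificity phosphatase that acts on JNK and p38, was at -0.61 ± 0.12 (SE), with its other probe set at -0.01. Kdm5c, a histone demethylase, had -0.72 ± 0.14 (SE) by the brightest probe set and 8 others that ran from -0.41 to 0.21. Slc35a2, the Golgi transporter of UDP-galactose, was likewise at -0.72 ± 0.14 (SE) with its 5 others between -0.18 and -0.03. Rassf10, of the Ras association domain family, was at -0.67 ± 0.13 (SE), with others at -0.24 and -0.33. Drap1, a transcriptional corepressor, was at -0.45 ± 0.09 (SE). Prrc1 was at -0.39 ± 0.08 (SE), with its other probe sets between -0.34 and 0.00. The adjusted p of the 23 genes after Spry2 ran from 0.355 to 0.359 (limma).

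**Figure D1:**
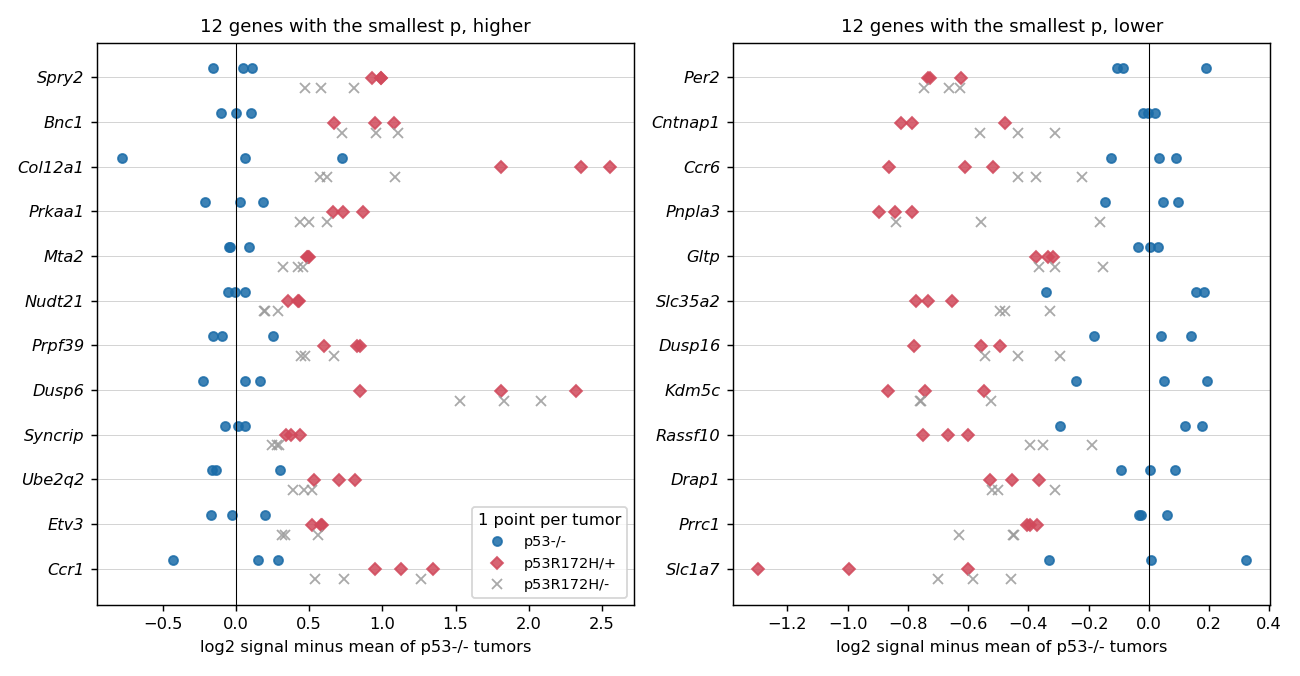
Log2 signal of each tumor minus the mean of the p53-/- tumors (horizontal axis) for the 12 genes with the smallest p in each direction, with 1 point per tumor. The p53R172H/+ tumors lie on 1 side of the p53-/- tumors for every gene drawn, which the ranking by p favours, and Col12a1 and Dusp6 have the widest spread among the p53R172H/+ tumors.

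Gene lists of pathways and cell types were then read against all genes, by how many members were higher on average, how many were separated and the median of their log2 fold changes. With at least 10 genes tested, the highest medians belonged to inflammatory cytokines and chemokines (0.54), ERK feedback and output genes (0.29), neutrophil genes (0.28), mitosis genes (0.27) and macrophage genes (0.24). At the low end were hair keratin and follicle genes (-0.62), skeletal muscle genes (-0.41), circadian clock genes (-0.30) and fatty acid and triglyceride synthesis genes (-0.16). The lists differed in how their members behaved. Mitosis and clock genes had many separated members of modest size, whereas the hair and muscle lists had large differences but 0 and 1 separated members. Of all genes, 7.08% were separated and higher and 8.86% separated and lower.

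**Figure D2:**
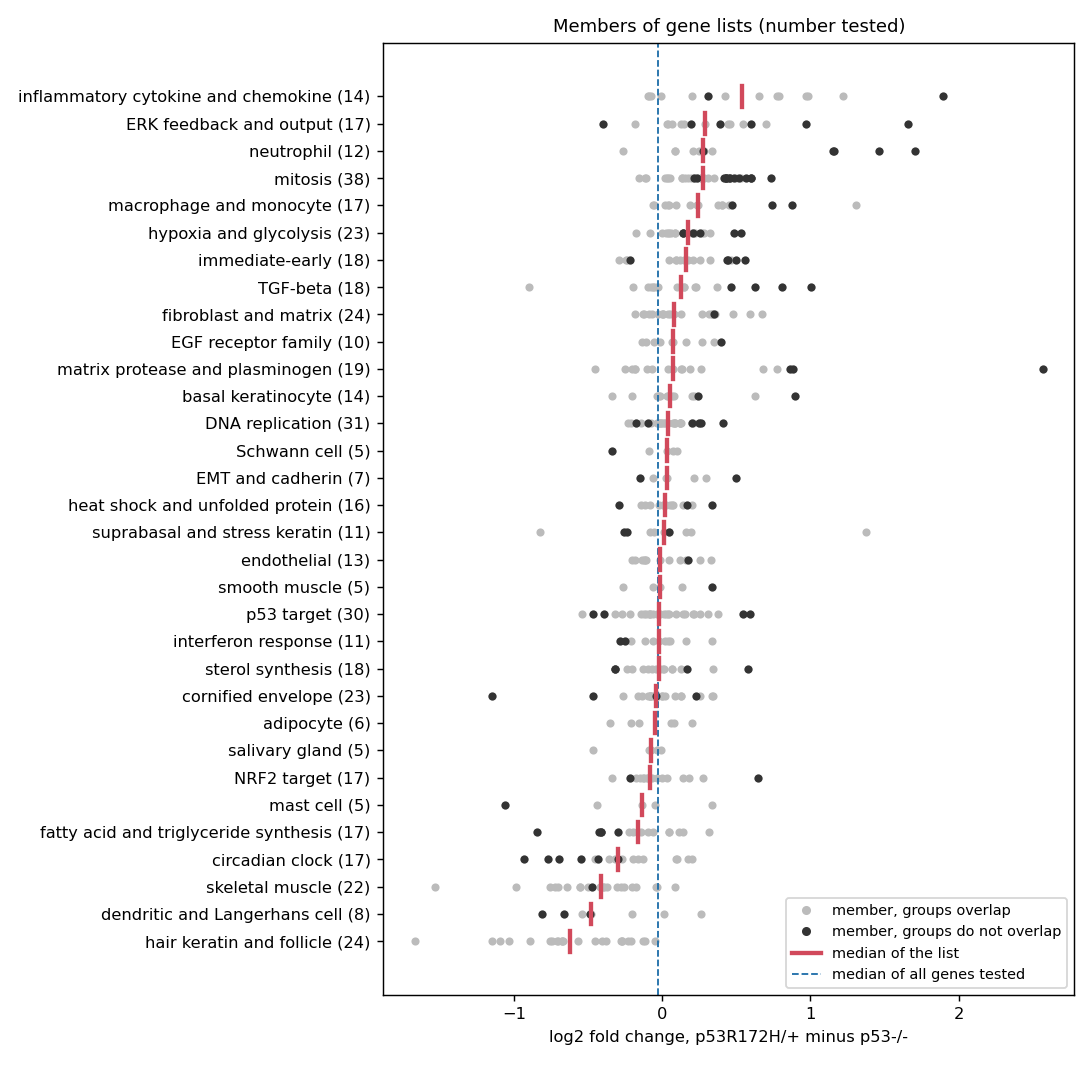
Log2 fold change of each tested member of a gene list, p53R172H/+ minus p53-/- (horizontal axis), with black points for members whose groups did not overlap, red bars for list medians and a dashed line for the median of all genes. Cytokine, ERK, neutrophil and mitosis lists lie to the right of the dashed line and clock, muscle, dendritic cell and hair lists to its left.

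Genes induced by ERK and feeding back on it were mostly higher in the p53R172H/+ tumors. Of 17 tested, 15 were higher on average, 5 were separated and higher (7.08% of all genes were), and 1 was separated and lower (8.86% of all genes), with a median of 0.29. Dusp6, the phosphatase that dephosphorylates ERK in the cytoplasm, was at 206, 253 and 272 signal units in p53-/- tumors and at 1213, 848 and 434 in p53R172H/+ tumors. The lowest mutant tumor was still above the highest p53-/- tumor, but the mutant tumors themselves spread almost as widely as the groups differed (1.66 ± 0.32 SE, adjusted p = 0.359 by limma). Ier3, an early response gene that prolongs ERK activity, was at 2108, 2591 and 2327 signal units against 3631, 4130 and 2935 (0.60 ± 0.13 SE).

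Dusp5, the nuclear phosphatase of ERK, was at 424, 424 and 443 signal units in p53-/- and at 560, 675 and 473 in p53R172H/+ tumors (0.39 ± 0.13 SE). Spred1, which blocks Ras activation of RAF, was at 0.19 ± 0.09 (SE). For all 4 of Dusp6, Dusp5, Ier3 and Spred1 the lowest mutant value was that of tumor 3. The separated gene with the opposite direction was Epha4, an ephrin receptor, at 328, 493 and 410 against 305, 313 and 304 signal units (-0.40 ± 0.17 SE). Cyclin D1 (Ccnd1), a classical ERK output in G1, had overlapping groups at 1996, 2418 and 2383 against 2048, 2471 and 1546 signal units (-0.19 ± 0.20 SE). Without p53R172H/+ tumor 3 the median of the ERK list was 0.48, and without p53-/- tumor 1 it was 0.19.

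Upstream of Ras, ligands and receptors of the EGF receptor family differed little. Of 10 tested, 6 were higher on average, with a median of 0.07 and 1 separated gene, on the higher side (7.08% of all genes). That gene was Tgfa, the ligand TGF-alpha, at 717, 847 and 823 signal units in p53-/- and at 1011, 1135 and 999 in p53R172H/+ tumors (0.40 ± 0.14 SE). Its other probe sets were at 0.08 and 0.30. Hbegf, another ligand of the receptor, overlapped between the groups (0.35 ± 0.31 SE).

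Immediate-early genes, transcription factors and regulators switched on within minutes of a growth signal, were higher on average for 14 of 18 members, with 4 separated higher (7.08% of all genes), 1 separated lower (8.86%) and a median of 0.16, or 0.29 without p53-/- tumor 3. Ier2 was at 1138, 1267 and 1482 signal units in p53-/- and at 2028, 1988 and 1690 in p53R172H/+ tumors (0.56 ± 0.13 SE). The growth regulator Myc had a narrow mutant group, at 473, 449 and 580 against 653, 691 and 681 (0.44 ± 0.11 SE). Junb, a subunit of the AP-1 transcription factor, was at 0.50 ± 0.13 (SE) and Zfp36, which destabilises cytokine mRNAs, at 0.45 ± 0.15 (SE). Fosl2, another AP-1 subunit, was the separated lower member (-0.22 ± 0.11 SE), and its other probe set was at -0.67.

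**Figure D3:**
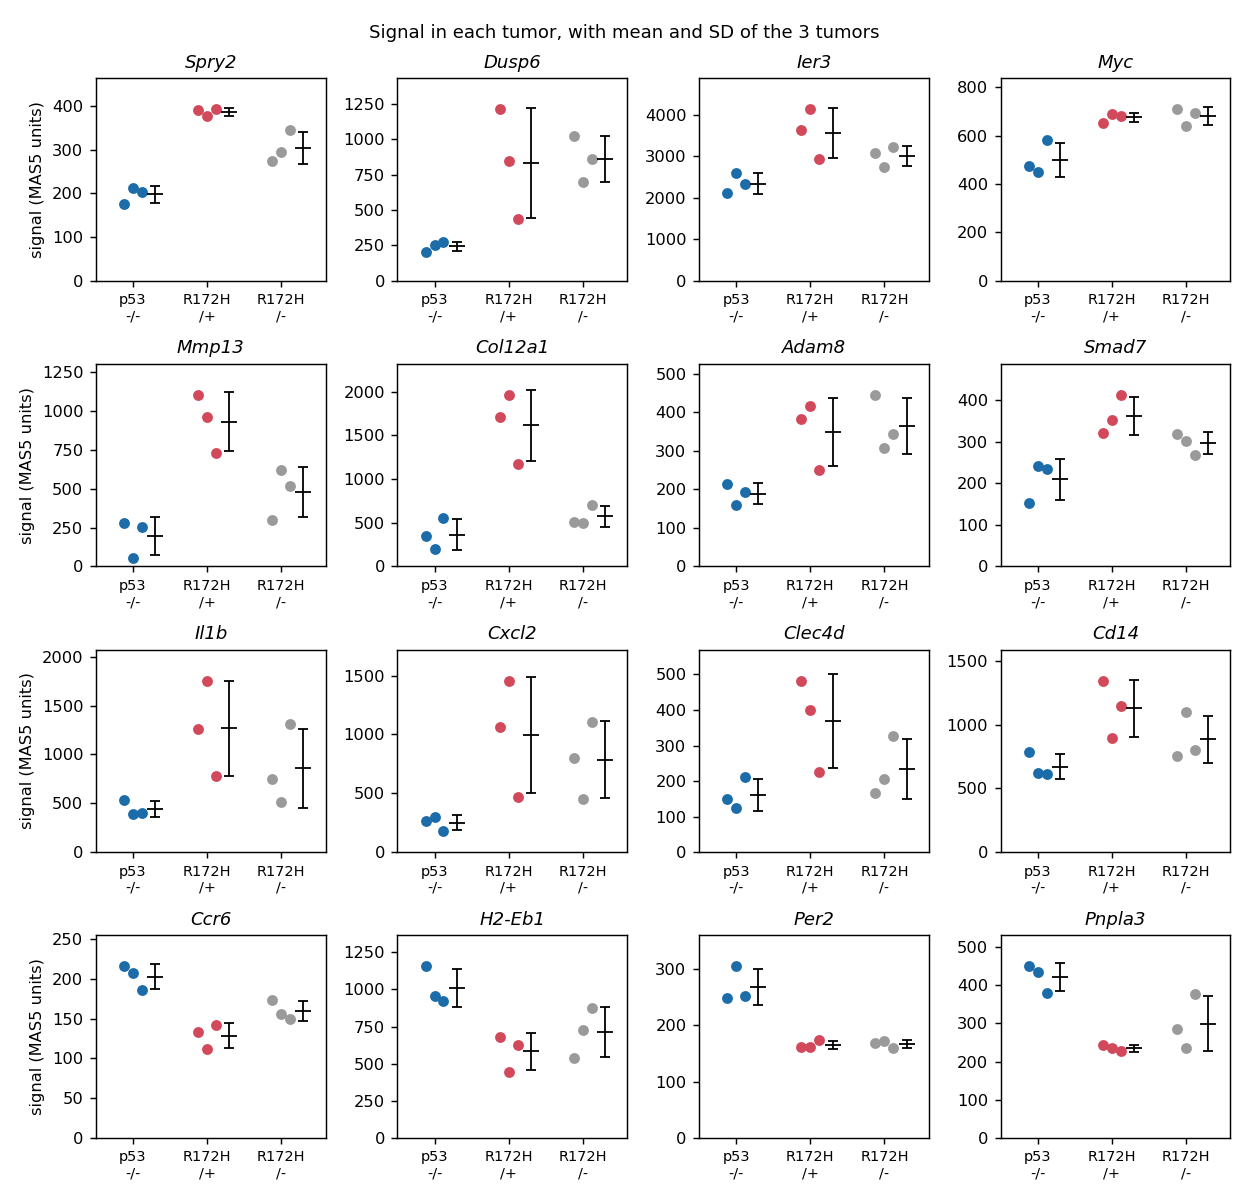
Signal in MAS5 units (vertical axis, from 0) in each tumor of 16 genes described in the text, with the mean and SD of the 3 tumors of a group beside the points. Spry2, Myc, Per2 and Pnpla3 have tight p53R172H/+ groups, while Dusp6, Il1b and Cxcl2 vary over 2-fold among the tumors of that group, with tumor 3 the lowest.

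The squamous epithelium itself showed small differences. Basal keratinocyte genes had a median of 0.05 over 14 genes, 9 higher and 5 lower on average. Bnc1 and Itga6, the integrin alpha 6 of hemidesmosomes (0.24 ± 0.13 SE), were separated and higher (7.08% of all genes were). The 5 lower members overlapped, among them Dst (-0.34 ± 0.14 SE), Itga3 (-0.20 ± 0.14 SE) and Itgb4 (-0.01 ± 0.13 SE). Suprabasal and stress keratins had a median of 0.02 over 11 genes. Krt80 was at 3549, 3768 and 3692 signal units in p53-/- and at 3286, 3111 and 2965 in p53R172H/+ tumors (-0.23 ± 0.07 SE), and Krt78 was at -0.25 ± 0.12 (SE). Krt4, a keratin of mucosal differentiation, shows how far single keratins varied between tumors. It was at 1327, 5904 and 472 signal units in the p53-/- tumors and at 2101, 4204 and 7299 in the p53R172H/+ tumors, and its difference of 1.37 was close to its SE of 1.03.

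Cornified envelope genes, which build the dead outer layer of keratinising epithelium, had a median of -0.04 over 23 genes, 9 higher and 14 lower on average. Ivl, the envelope scaffold involucrin, was separated but variable, at 529, 513 and 1138 signal units in p53-/- and at 477, 212 and 281 in p53R172H/+ tumors (-1.15 ± 0.66 SE). Casp14, a caspase of terminal keratinocyte differentiation, was at 3117, 2785 and 3277 against 2655, 2092 and 1934 (-0.47 ± 0.17 SE). In the opposite direction Lce3c, a late cornified envelope protein, was at 0.23 ± 0.11 (SE). A pair of further genes of differentiated epithelium was noticed among the separated genes with a 2-fold difference, after their values were seen. Slurp1, a secreted protein of keratinocytes, was at 4423, 4983 and 6630 signal units in p53-/- and at 3011, 1173 and 2606 in p53R172H/+ tumors (-1.33 ± 0.43 SE), and Lce1m, another late cornified envelope gene, was at -1.20 ± 0.33 (SE).

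Matrix proteases cut collagens and other matrix proteins around invading cells, and many are induced through AP-1. The promoters of Mmp13 and Mmp10 are shown because these proteases were separated in this comparison and each window holds the AP-1 letters TGACTCA on 1 of its strands. The windows are the 250 bases before the transcription start in RefSeq's GRCm38.p6, both on the plus strand, with the motif in capitals.
Mmp13, chr9:7272264-7272513: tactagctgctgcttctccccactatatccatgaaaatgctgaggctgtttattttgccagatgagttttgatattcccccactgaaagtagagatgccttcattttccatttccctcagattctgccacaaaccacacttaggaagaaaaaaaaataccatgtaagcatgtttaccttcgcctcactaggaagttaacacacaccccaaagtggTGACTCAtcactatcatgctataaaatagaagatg
Mmp10, chr9:7502092-7502341: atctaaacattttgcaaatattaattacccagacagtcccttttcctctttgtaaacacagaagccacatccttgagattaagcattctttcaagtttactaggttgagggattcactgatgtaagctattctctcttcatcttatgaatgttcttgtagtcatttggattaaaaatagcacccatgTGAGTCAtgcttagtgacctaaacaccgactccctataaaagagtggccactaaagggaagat
The motif begins 35 bases before the start of Mmp13 and 63 bases before that of Mmp10, where it is on the other strand. Searched on both strands of windows of the same length, it occurred in 3 of the 14 proteases and inhibitors with a window (Mmp3, Mmp10 and Mmp13) and in 5.16% of 27025 genes. A match is a description of the letters and not evidence of binding. In other lists, TGACTCA was in 0 of 14 immediate-early genes with a window. The ETS letters CCGGAAG, searched because ERK acts on ETS factors, were in 0 of 13 ERK feedback and output genes, 1 of 14 immediate-early genes (Zfp36) and 7.83% of all genes.

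Mmp13, a collagenase that cleaves fibrillar collagen, had the largest log2 fold change of the separated genes. It was at 276, 52.3 and 254 signal units in the p53-/- tumors and at 1104, 964 and 727 in the p53R172H/+ tumors, every one of the mutant tumors far above every p53-/- tumor. The log2 fold change was 2.57 ± 0.57 (SE, adjusted p = 0.359 by limma), and 1.79 at the lowest when 1 array was left out, since p53-/- tumor 2 was by far the dimmest. Adam8, a membrane-bound metalloprotease of myeloid and tumor cells, was at 215, 159 and 192 signal units against 382, 417 and 249 (0.87 ± 0.22 SE). Mmp10, a stromelysin of migrating keratinocytes, was dimmer, at 91.8, 106 and 99.4 signal units against 119, 272 and 188 (0.88 ± 0.28 SE). These 3 were the separated members of the list (7.08% of all genes were separated and higher), in which 12 of 19 genes were higher on average and the median was 0.07.

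Fibroblast and matrix genes as a list gave no common direction, with 17 of 24 higher on average and a median of 0.08. Separated and higher was 1 member (7.08% of all genes were). This was Fbln1, the matrix glycoprotein fibulin 1, at 376, 354 and 330 signal units in p53-/- and at 379, 547 and 438 in p53R172H/+ tumors (0.35 ± 0.15 SE). The minor fibrillar collagen Col5a1 was at 1205, 800 and 1111 against 1469, 1582 and 943 (0.34 ± 0.22 SE), and Lox, which crosslinks collagen, at 492, 159 and 402 against 602, 465 and 387 (0.60 ± 0.38 SE). In each of Col12a1, Mmp13, Col5a1 and Lox the dimmest of the p53-/- tumors was tumor 2, which also had the lowest mean log2 signal of the fibroblast list of the 6 tumors, at 9.82 against 10.39 to 10.71 in the others. Its part in these differences was measured only by leaving it out. Without it Col12a1 was at 1.85 at the lowest, and the list median was -0.13.

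TGF-beta signalling restrains the growth of normal epithelium and feeds back through its own inhibitors. Of 18 genes tested, 10 were higher on average, 4 were separated and higher (7.08% of all genes) and 0 lower (8.86%). The median was 0.13, and 0.06 without p53-/- tumor 2. Smad7, the inhibitory SMAD, was at 153, 243 and 234 signal units in p53-/- and at 321, 352 and 413 in p53R172H/+ tumors (0.81 ± 0.18 SE). Tgif1, a corepressor of SMAD proteins, was at 244, 305 and 305 against 763, 580 and 415 (1.00 ± 0.25 SE). Skil (-0.06 ± 0.10 SE) and Pmepa1 (-0.06 ± 0.19 SE) of the same list were slightly lower on average and overlapped. The inhibitors of differentiation Id1 and Id3, targets of the related BMP pathway, were at 0.63 ± 0.26 (SE) and 0.47 ± 0.18 (SE). Ccn2, a matrix-associated growth factor and a classical TGF-beta target, went the other way with overlapping groups, at 856, 907 and 1733 against 519, 440 and 914 signal units (-0.90 ± 0.34 SE).

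Just 7 genes of epithelial-mesenchymal transition were bright enough to test, with a median of 0.03. Snai2, a transcription factor that represses epithelial adhesion genes and is also expressed in basal keratinocytes, was at 1724, 2023 and 1333 signal units in p53-/- and at 2236, 2741 and 2127 in p53R172H/+ tumors (0.50 ± 0.18 SE). E-cadherin, encoded by Cdh1, was separated by a small margin, at 4042, 4098 and 4111 against 3695, 3659 and 3698 (-0.15 ± 0.10 SE).

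Inflammatory chemokines of the CXC family recruit neutrophils and are induced through NF-kB. The promoters of Cxcl2 and Cxcl1 are shown because both hold GGGAATT, the first letters of a known NF-kB site, close to their start. On either strand 3.59% of 27025 genes held these letters, which were chosen after the promoters had been read. The 250 bases before each start in GRCm38.p6 follow, on the plus strand, with the motif in capitals.
Cxcl2, chr5:90903649-90903898: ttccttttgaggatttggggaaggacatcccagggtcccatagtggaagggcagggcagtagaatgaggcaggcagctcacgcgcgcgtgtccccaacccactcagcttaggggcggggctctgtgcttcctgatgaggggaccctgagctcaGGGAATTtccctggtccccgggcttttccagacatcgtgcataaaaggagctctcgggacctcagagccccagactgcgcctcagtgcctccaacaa
Cxcl1, chr5:90890995-90891244: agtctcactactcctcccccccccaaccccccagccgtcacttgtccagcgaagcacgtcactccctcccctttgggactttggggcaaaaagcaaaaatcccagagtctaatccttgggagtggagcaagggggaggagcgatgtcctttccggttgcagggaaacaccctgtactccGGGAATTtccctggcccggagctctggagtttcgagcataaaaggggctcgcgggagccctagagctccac
The motif begins 97 bases before the start of Cxcl2 and 71 bases before that of Cxcl1. Of the 11 cytokine and chemokine genes with a window, 4 held it, namely Cxcl1, Cxcl2, Cxcl3 and Il1a.

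Cxcl2 was at 266, 301 and 176 signal units in the p53-/- tumors and at 1060, 1458 and 471 in the p53R172H/+ tumors (1.89 ± 0.44 SE, adjusted p = 0.359 by limma). Its groups did not overlap, but mutant tumor 3 lay much closer to the p53-/- tumors than mutant tumors 1 and 2. Cxcl1, at 366, 537 and 218 against 578, 1300 and 444, followed the same order of mutant tumors and overlapped with the p53-/- group (0.99 ± 0.48 SE). Ptgs2, the inducible cyclooxygenase, overlapped too, at 95.1, 72.7 and 355 against 240, 310 and 417 signal units (1.22 ± 0.50 SE). Over the 14 cytokine, chemokine and related genes 10 were higher on average and only Cxcl2 and Ccl3, a macrophage chemokine (0.31 ± 0.19 SE), were separated (7.08% of all genes). The list's median of 0.54 became 0.87 with mutant tumor 3 left out, 0.13 with mutant tumor 2 left out and 0.19 when p53-/- tumor 3 was left out.

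Genes of neutrophils were higher on average for 11 of 12 members, and 5 were separated and higher against 7.08% of all genes. Il1b, the cytokine interleukin 1 beta, was at 533, 385 and 405 signal units in p53-/- and at 1265, 1757 and 782 in p53R172H/+ tumors (1.46 ± 0.36 SE). Slfn4, a Schlafen protein of myeloid cells, was the most even, at 217, 161 and 192 against 394, 452 and 415 (1.15 ± 0.31 SE). The C-type lectin receptors Clec4d and Clec4e, which sense microbes and dead cells, were at 149, 124 and 210 against 483, 401 and 224 signal units (1.16 ± 0.33 SE) and at 122, 27.9 and 109 against 456, 406 and 131 (1.70 ± 0.55 SE). In both, mutant tumor 3 was only just above the highest p53-/- tumor. The fifth separated gene was Il1r2, the decoy receptor of interleukin 1 (0.28 ± 0.23 SE). All other members overlapped, and Cxcr2, the receptor of CXC chemokines, was lower on average (-0.26 ± 0.16 SE). Ngp and Trem1 were each at 0.09, Csf3r at 0.21, S100a8 at 0.25, Lcn2 at 0.28 and S100a9 at 0.33. The list as a whole therefore does not show a rise of each neutrophil gene. The summed signal of the 12 neutrophil genes overlapped between the groups, at 22258 to 24977 signal units in p53-/- and 24771 to 34155 in p53R172H/+ tumors. The list's median of 0.28 was 0.45 without p53R172H/+ tumor 1 and 0.17 without p53R172H/+ tumor 3. Of the 15 genes listed for this cell type, 3 were not tested.

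Among 17 genes of monocytes and macrophages 15 were higher on average, with a median of 0.24 and 3 separated and higher (7.08% of all genes). Cd14, the co-receptor of lipopolysaccharide, was at 781, 618 and 612 signal units in p53-/- and at 1345, 895 and 1143 in p53R172H/+ tumors (0.74 ± 0.19 SE). Tyrobp, a signalling adaptor of myeloid receptors, was at 754, 588 and 744 against 982, 887 and 1008 (0.47 ± 0.15 SE), and Fcgr3, a receptor of IgG, at 186, 153 and 212 against 383, 297 and 326 (0.87 ± 0.32 SE). Lysozyme (Lyz2) overlapped, at 867, 543 and 1964 against 3523, 1716 and 2315 (1.31 ± 0.54 SE). All other members overlapped too, and Csf1r and Msr1 were lower on average, each at -0.06. C1qb (0.02), Aif1 (0.04), Fcgr1 (0.05) and Ccr2 (0.09) differed little, and the rest lay between 0.19 (Ctss) and 0.45 (C1qc). The list as a whole therefore does not show a rise of each macrophage gene. Summed over the 17 genes the signal was 6159 to 9888 in p53-/- and 9035 to 13374.5 in p53R172H/+ tumors. The list's median was 0.03 without p53-/- tumor 2, and 0.42 to 0.43 without p53-/- tumor 1 or 3 or p53R172H/+ tumor 2. Whether the higher myeloid genes follow from more myeloid cells was not tested.

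Among the genes with a 2-fold difference and separated groups, several others with known expression in myeloid cells were noticed after their values were seen. Ccr1, a receptor of inflammatory chemokines that the ranking by p had also named, was at 104, 63.0 and 94.1 signal units in p53-/- and at 216, 186 and 164 in p53R172H/+ tumors (1.14 ± 0.23 SE). Acod1, which makes itaconate in activated macrophages, was at 161, 90.2 and 154 against 833, 719 and 216 (1.95 ± 0.62 SE). Srgn, the core protein of the granule proteoglycan serglycin, was at 1.09 ± 0.31 (SE) and Ifitm1, an interferon-induced membrane protein, at 1.24 ± 0.25 (SE). Hp, the acute phase protein haptoglobin, was at 1.15 ± 0.35 (SE). Tnfrsf12a, the receptor of the cytokine TWEAK and not a myeloid gene, was at 676, 580 and 706 against 1897, 1357 and 890 (1.02 ± 0.32 SE).

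Listed genes of dendritic and Langerhans cells, several of them MHC class II genes, were mostly lower on average. Of 8 dendritic and Langerhans cell genes tested, 6 were lower on average and 3 were separated and lower (8.86% of all genes), with a median of -0.48, or -0.28 without p53R172H/+ tumor 2. H2-Eb1, an MHC class II chain, was at 1156, 956 and 920 signal units in p53-/- and at 680, 443 and 623 in p53R172H/+ tumors (-0.81 ± 0.21 SE). Cd74, the invariant chain that escorts MHC class II, was at 2650, 2458 and 2467 against 2093, 1473 and 1901 (-0.48 ± 0.21 SE), and the third separated member was Ccr6, which Langerhans cell precursors use to enter epithelium. H2-Aa, another class II chain, overlapped at 2094, 1377 and 1886 against 1744, 862 and 1181 (-0.54 ± 0.27 SE). So did H2-Ab1 (-0.48 ± 0.30 SE) and Itgax (-0.21 ± 0.13 SE). Zbtb46 (0.26 ± 0.18 SE) and Flt3 (0.02 ± 0.11 SE) were higher on average and overlapped too. The summed signal of the 8 genes was 6952 to 9095 in p53-/- and 4307 to 7186.5 in p53R172H/+ tumors. Another 6 genes of this list were too dim to test.

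Lymphocyte markers gave little to compare, since 15 of 19 T and NK cell genes were not tested, 13 of them because they were too dim. The 4 that were tested had a median of -0.09 and 0 were separated. Among 5 mast cell genes, with a median of -0.14, only the tryptase Tpsab1 was separated and lower (8.86% of all genes were). It was at 231, 340 and 225 signal units in p53-/- and at 79.7, 122 and 201 in p53R172H/+ tumors (-1.06 ± 0.31 SE). Cma1 (-0.44 ± 0.37 SE), Cpa3 (-0.14 ± 0.30 SE) and Mcpt4 (-0.05 ± 0.22 SE) overlapped. So did Hdc, which was higher on average (0.34 ± 0.21 SE). Of the interferon response genes 5 were higher and 6 lower on average, with a median of -0.02.

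Mitosis genes encode the kinases, motors and spindle proteins that divide the cell. Of 38 tested, 35 were higher on average in p53R172H/+ tumors, 14 were separated and higher (7.08% of all genes), and 0 were separated and lower (8.86%), with a median of 0.27. Cdc20, which activates the ubiquitin ligase of anaphase, was at 1219, 1168 and 1050 signal units in p53-/- and at 1531, 1469 and 1590 in p53R172H/+ tumors (0.42 ± 0.09 SE), with other probe sets at 0.42 and 0.05. Kif20a, a kinesin of cytokinesis, was at 115, 91.9 and 110 against 198, 162 and 166 (0.73 ± 0.16 SE). Bora, a cofactor of the kinase Aurora A, was at 0.60 ± 0.15 (SE) with its other probe set at 0.16. Nusap1, which bundles spindle microtubules, was at 0.56 ± 0.16 (SE) with its other probe set at -0.10.

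Among the mitotic kinases Aurka, Aurkb, Plk1, Cdk1, Nek2 and Bub1b overlapped between the groups. Bub1 (0.45 ± 0.17 SE) and Ttk (0.21 ± 0.13 SE) were separated and higher. Aurka, which encodes Aurora A, was at 253, 156 and 159 signal units in p53-/- and at 299, 247 and 256 in p53R172H/+ tumors (0.53 ± 0.21 SE), and Plk1 was at 0.23 ± 0.16 (SE). Mki67, the usual marker of cycling cells, did not differ beyond its spread, at 1055, 674 and 794 against 900, 778 and 860 (0.03 ± 0.15 SE). In Mki67 and Aurka alike p53-/- tumor 1 was the highest of its group. Without it the median of the mitosis list was 0.43, and without p53R172H/+ tumor 1 it was 0.22. The summed signal of the 38 mitosis genes overlapped between the groups, at 13239 to 16515 signal units in p53-/- and 15987 to 18549 in p53R172H/+ tumors. DNA replication genes were near even, with 18 of 31 higher on average and a median of 0.04.

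Known p53 targets gave no common direction. Of 30 tested, 14 were higher and 16 lower on average, 2 were separated in each direction (7.08% of all genes higher, 8.86% lower), and the median was -0.02, close to the -0.03 of all genes. Cdkn1a, the p21 inhibitor of cyclin-dependent kinases, was at 2249, 2727 and 2855 signal units in p53-/- and at 2737, 2512 and 2617 in p53R172H/+ tumors. Mdm2, whose product marks p53 for degradation, was at 618, 583 and 600 against 714, 730 and 568, and Ccng1, cyclin G1, at 1030, 1467 and 1031 against 814, 1040 and 1052. The groups overlapped for each of these 3, with log2 fold changes of 0.01 ± 0.10, 0.15 ± 0.12 and -0.27 ± 0.18 (SE).

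The separated targets were Plk2 and Pmaip1 on the higher side and Dcxr and Tap1 on the lower. Plk2, a polo-like kinase of the stress response, was at 999, 813 and 828 signal units in p53-/- and at 1301, 1326 and 1218 in p53R172H/+ tumors (0.55 ± 0.14 SE). Its other probe set was at 0.14. Pmaip1, the pro-apoptotic protein NOXA, was at 253, 250 and 190 in p53R172H/+ tumors, each above all p53-/- tumors (0.59 ± 0.30 SE). Dcxr, a carbonyl reductase, was at 299, 435 and 357 against 215, 294 and 278 (-0.47 ± 0.16 SE). Tap1, a peptide transporter of MHC class I presentation, was at 358, 314 and 340 against 255, 240 and 276 (-0.39 ± 0.11 SE). Ephx1, an epoxide hydrolase, overlapped (-0.54 ± 0.22 SE).

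Of 23 genes of hypoxia and glycolysis 20 were higher on average, with 6 separated and higher (7.08% of all genes), 0 lower (8.86%) and a median of 0.18. Vegfa, the angiogenic growth factor, was at 269, 336 and 270 signal units in p53-/- and at 382, 527 and 368 in p53R172H/+ tumors (0.53 ± 0.15 SE). Adm, the vasodilator adrenomedullin, was at 250, 182 and 300 against 354, 340 and 310 (0.48 ± 0.17 SE), and Kdm3a, a histone demethylase induced by HIF, at 0.25 ± 0.10 (SE). The glycolytic enzyme genes Tpi1 (0.21 ± 0.07 SE) and Ldha (0.14 ± 0.07 SE) differed by little on bright signals. Leaving out any 1 array kept the median between 0.11, without p53R172H/+ tumor 1, and 0.20. The mean log2 signal of the list was 10.34, 10.32 and 10.46 in p53-/- and 10.56, 10.62 and 10.42 in p53R172H/+ tumors. Mutant tumor 3 thus lay within the p53-/- range. In that tumor 10 of the 23 genes were above the range of the p53-/- tumors and 8 were below it.

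Genes of the oxidative stress regulator NRF2 had a median of -0.08 over 17. Hmox1, the haem oxygenase that NRF2 shares with other stress pathways, stood apart from that list, at 526, 592 and 792 signal units in p53-/- and at 805, 1015 and 1158 in p53R172H/+ tumors (0.65 ± 0.18 SE). Tkt, transketolase of the pentose phosphate pathway, was at -0.21 ± 0.08 (SE). Sterol synthesis genes were split, with Sc5d, a sterol desaturase, at 955, 1130 and 1199 against 1676, 1972 and 1314 signal units (0.58 ± 0.16 SE, others at -0.30 and 0.34) and Mvd, mevalonate decarboxylase, at -0.32 ± 0.11 (SE).

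Fatty acid and triglyceride synthesis genes were lower on average for 12 of 17 members, and 5 were separated and lower against 8.86% of all genes. Their median of -0.16 was -0.10 without p53R172H/+ tumor 2 and -0.11 without p53-/- tumor 2. Beside Pnpla3, these were Srebf1, the transcription factor of fatty acid synthesis and a known activator of Pnpla3, at 944, 883 and 769 signal units in p53-/- and 564, 643 and 750 in p53R172H/+ tumors (-0.41 ± 0.14 SE), and Gpam, the first enzyme of glycerolipid synthesis, at 888, 843 and 855 against 605, 629 and 691 (-0.43 ± 0.18 SE). Dgat2, which makes triglycerides, was at 4067, 4470 and 4186 against 3501, 3685 and 3197 (-0.29 ± 0.09 SE), and Elovl5, a fatty acid elongase, at -0.41 ± 0.19 (SE). Adipocyte markers showed 3 of 6 genes lower on average, 0 separated and a median of -0.05, with a summed signal of 6617 to 6770 in p53-/- and 5994 to 8500 in p53R172H/+ tumors.

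The circadian clock is a loop in which CLOCK and BMAL1 bind E-boxes and switch on their own repressors, the period and cryptochrome genes, and output factors of the PAR bZIP family. The promoter of Per1 is shown because it belongs to that loop, was separated here and holds the E-box letters CACGTG. It is the plus strand of GRCm38.p6 over 250 bases before 1 of the 2 starts listed for the gene, with the E-box in capitals, 166 bases before the start.
Per1, chr11:69098699-69098948: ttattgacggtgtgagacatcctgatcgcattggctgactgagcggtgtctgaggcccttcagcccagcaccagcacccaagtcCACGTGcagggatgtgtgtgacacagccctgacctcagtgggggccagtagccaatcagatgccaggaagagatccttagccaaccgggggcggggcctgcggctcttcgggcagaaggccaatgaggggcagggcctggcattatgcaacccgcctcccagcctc
The same letters, which read alike on both strands, occurred in 5 of the 15 clock genes with a window (Per1, Cry1, Tef, Bhlhe41 and Ciart) and in 6.86% of 27025 genes.

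Of 17 clock genes, 13 were lower on average in p53R172H/+ tumors, 6 were separated and lower (8.86% of all genes) and 0 separated and higher (7.08%), with a median of -0.30. Per1 was at 281, 322 and 435 signal units in p53-/- and at 164, 205 and 236 in p53R172H/+ tumors (-0.77 ± 0.23 SE), much as Per2 above. Dbp, an output factor with a wide daily swing, was at 1282, 1379 and 1951 against 557, 814 and 1090 (-0.93 ± 0.33 SE), and its relative Hlf at 159, 170 and 181 against 106, 130 and 144 (-0.43 ± 0.14 SE). The remaining separated genes were Cry2, a cryptochrome repressor (-0.55 ± 0.19 SE), and Tef, a further PAR bZIP factor (-0.30 ± 0.15 SE). Taking the mean of a gene's probe sets in place of its brightest brought the median to -0.16. Clock transcripts cycle over the day in most tissues, and the hour of collection is not stated in the sources used here.

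Genes of hair and muscle varied widely among the tumors of a group. All 24 hair keratin and follicle genes were lower on average in p53R172H/+ tumors, and 21 of 22 skeletal muscle genes. Yet these lists had 0 and 1 members separated and lower (8.86% of all genes were) and 0 genes with an unadjusted p under 0.05 (limma). Averaged over its genes, the muscle list had a log2 signal of 7.76, 7.74 and 8.22 in p53-/- and 7.40, 6.62 and 8.31 in p53R172H/+ tumors, and that of the hair list 9.05, 8.09 and 9.13 against 8.34, 7.16 and 9.01. Mutant tumor 2 was the lowest of the 6 for both, and mutant tumor 3 lay above the p53-/- range for muscle and within it for hair. Myh1, a myosin heavy chain of fast muscle fibres, was at 666, 731 and 1444 signal units in p53-/- and at 358, 39.9 and 1542 in p53R172H/+ tumors (-1.53 ± 1.56 SE). Krtap8-1, a keratin-associated protein of the hair shaft, was at 3011, 1240 and 2169 against 928, 159 and 1706 (-1.67 ± 1.17 SE). Keratin-associated protein genes outside the list were noticed among the separated genes with a 2-fold difference, after their values were seen. They were Krtap19-2, Krtap19-9b, Krtap6-5, Krtap16-3 and Krtap19-3, at -1.68 to -1.21 with SEs of 0.81 to 1.11. Each was under the floor in mutant tumor 2, as in Krtap19-2 at 395, 137 and 136 against 69.9, 19.45 and 61.6. Without mutant tumor 2 the medians of the muscle and hair lists were -0.06 and -0.08, and without mutant tumor 3 they were -0.80 and -0.93. The hair median was -0.40 without p53-/- tumor 1 or 3, and the muscle median -0.26 without p53-/- tumor 3.

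**Figure D4:**
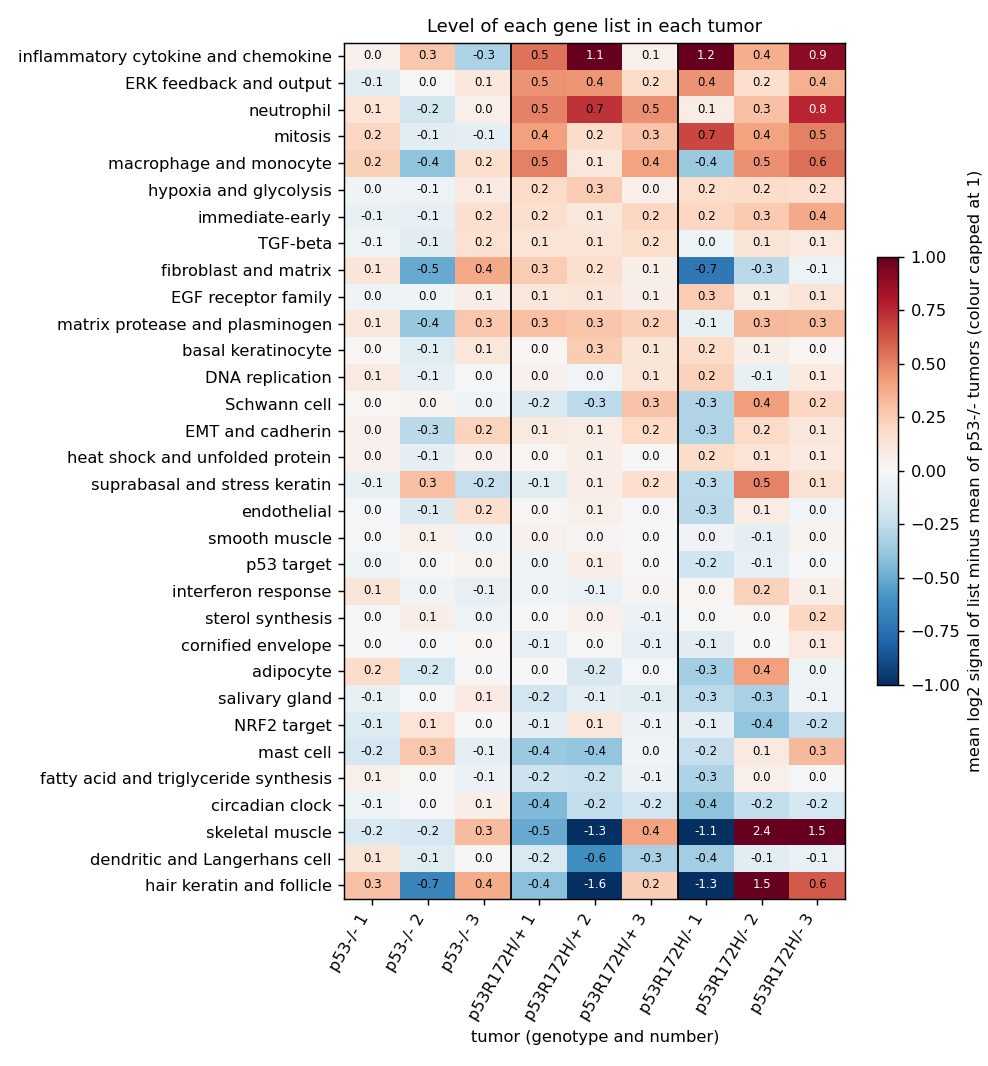
Mean log2 signal of each gene list in each of the 9 tumors minus the mean of the 3 p53-/- tumors, as colour and number. The ERK, neutrophil, mitosis and clock lists keep 1 sign in all 3 p53R172H/+ tumors, while the muscle and hair lists run from strongly negative in tumor 2 to slightly positive in tumor 3.

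Seen tumor by tumor, p53R172H/+ tumor 3 departed least from the p53-/- group. Of all genes, 22.6% were above the range of the p53-/- tumors in mutant tumor 1, 24.0% in tumor 2 and 24.6% in tumor 3, but the shares below that range were 34.7%, 32.4% and 21.5%. Each mutant tumor moved the count of lower genes by over 1.5 times when left out. Without tumor 3, 1104 genes had an unadjusted p under 0.05 and were lower, against 681 with all arrays (limma), 347 without mutant tumor 2 and 351 without mutant tumor 1. On the higher side the count was 578 with all arrays, 378 without mutant tumor 1 and 373 without mutant tumor 2. The ratio of 3' to 5' Actb control probe sets, a measure of RNA integrity in which a lower value means less 3' bias, was 0.53 ± 0.07 on the log2 scale in p53R172H/+ tumors and 0.69 ± 0.09 in p53-/- tumors (SD, n = 3 each, p = 0.1 by exact two-sided permutation test, the smallest this design allows). For Gapdh it was -0.06 ± 0.03 and -0.01 ± 0.05 (p = 0.2 by the same exact test). The part of RNA integrity in the differences above was not tested.

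Within the groups, 384 genes varied over 2-fold among the p53R172H/+ tumors and 485 among the p53-/- tumors. Tumor 2 was the farthest from the other two in 319 of the 485 genes of the p53-/- group, whereas in the p53R172H/+ group tumors 2 and 3 were the farthest in 166 and 167 genes. The genes that varied most among p53R172H/+ tumors while varying under 2-fold in p53-/- tumors were of several kinds. Csn1s1, a casein gene, was at 54.8, 547 and 185 signal units in the mutant tumors and at 102, 107 and 88.8 in p53-/- tumors. Ly6k, of the Ly6 surface protein family, was at 44.3, 387 and 116 and Slc6a14, an amino acid transporter, at 786, 2282 and 510, so both were highest in mutant tumor 2. Fam199x was low in mutant tumor 3 alone, at 566, 540 and 86.2, with its 2 other probe sets at 0.01 and 0.13. Krt33b, Tnnc2 and Atp2a1, of hair and muscle, followed the tissue pattern above, lowest in tumor 2 and highest in tumor 3, and Lgi2, a secreted protein of the nervous system, was at 95.9, 131 and 443.

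**Figure D5:**
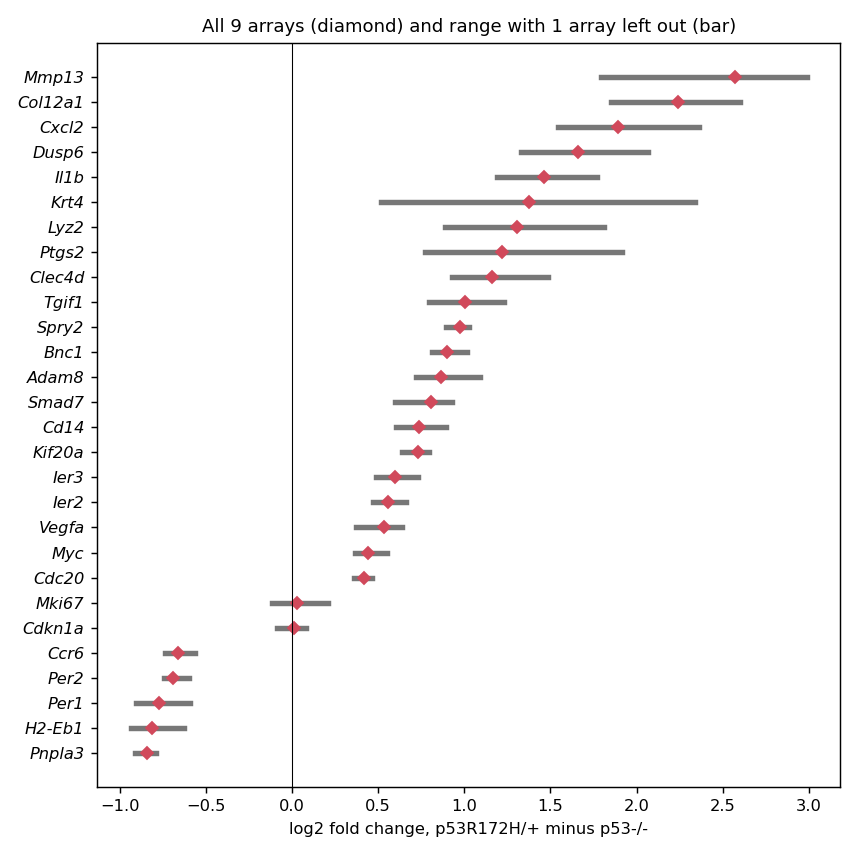
Log2 fold change of named genes with all 9 arrays (diamond) and its range when each array was left out in turn (bar). Spry2, Per2 and Pnpla3 have narrow bars, Mmp13, Krt4 and Ptgs2 wide ones, and the bars of Mki67 and Cdkn1a cross 0.

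The p53R172H/- tumors, which share the missense allele but have no wild-type one by label, were set beside the p53R172H/+ tumors. Both are compared with the same 3 p53-/- arrays, so likeness between the comparisons is partly built in, and the test of a difference between them is that of p53R172H/+ against p53R172H/-. In that test 0 of 12167 genes passed an adjusted p of 0.05 (0% called, smallest adjusted p = 0.452 by limma), and 603 had an unadjusted p under 0.05. Median log2 fold changes against p53-/- were 0.29 in p53R172H/+ and 0.28 in p53R172H/- tumors for ERK genes, -0.30 and -0.22 for clock genes, 0.18 and 0.17 for hypoxia genes, and 0.28 and 0.33 for neutrophil genes. They were farther apart for mitosis genes (0.27 and 0.60), fibroblast and matrix genes (0.08 and -0.43), dendritic and Langerhans cell genes (-0.48 and -0.14), hair genes (-0.62 and 0.30) and muscle genes (-0.41 and 1.22). The p53R172H/- tumors were themselves split for the last 2 lists. Their mean log2 signals were 6.76, 10.28 and 9.37 for muscle and 7.41, 10.23 and 9.37 for hair. In both, tumor 1 lay below every p53-/- tumor and tumors 2 and 3 lay above.

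Of the genes named above, Col5a1 and Col12a1 had the smallest p in this test, and neither passed it. Col5a1 was at 708, 552 and 610 signal units in p53R172H/- tumors, below every p53R172H/+ tumor (p53R172H/+ minus p53R172H/- 1.07 ± 0.22 SE, adjusted p = 0.916 by limma). Col12a1 was at 513, 496 and 707 in p53R172H/- tumors, also below every p53R172H/+ tumor (1.48 ± 0.35 SE, adjusted p = 0.916). Lce3c was next (0.39 ± 0.11 SE, adjusted p = 0.916). Hmox1, at 553, 636 and 726 in p53R172H/- tumors, was below every p53R172H/+ tumor (0.63 ± 0.18 SE, adjusted p = 0.927). Mki67 had the opposite order, with p53R172H/- tumors above every p53R172H/+ tumor at 1180, 1195 and 1205 signal units (-0.50 ± 0.15 SE, adjusted p = 0.927). Spry2 was intermediate in p53R172H/- tumors at 273, 294 and 345 signal units (0.35 ± 0.12 SE, adjusted p = 0.949). Dusp6 at 1027, 701 and 861, Bnc1 at 706, 637 and 543, Myc at 709, 640 and 695 and Per2 at 169, 173 and 159 lay within or near the range of the p53R172H/+ tumors, with differences of -0.16 ± 0.32, -0.03 ± 0.14, -0.01 ± 0.11 and -0.01 ± 0.11 (SE). A p that misses the threshold does not show that these groups are alike.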

How the data were processed

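RNA of 9 tumors was labelled with biotin and hybridised to 1 Affymetrix array each. In the deposited table each probe set has 1 linear intensity, which the authors made with MAS5 per the submitters' processing notes. The sources used here give neither its version nor its scaling. Intensities under the 20th percentile (52.6) were raised to it before log2. Of 45037 non-control probe sets, 34945 had 1 gene symbol in the platform annotation, 932 several and 9160 none, and the last 2 kinds were left out. A gene was its brightest probe set. Genes under 113 signal units were dropped, which left 12167 of 18193. The targeted gene is not reported here, so labels were not checked against it.

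Group means were estimated from all 9 arrays together with limma 3.58.1 (R 4.3.3, lmFit, eBayes with trend), two-sided and Benjamini-Hochberg adjusted over all genes at 0.05, and tested on simulated data. Genes were named by rule: the 12 with the smallest p in each direction, up to 4 of each list by p, 8 fixed genes (Ccnb1 was not tested), and the 8 most variable among p53R172H/+ tumors. Members of small counts and genes said to be noticed later were named after their values were seen. The lists and rules were chosen with earlier results of these data known. Lists have no test. Promoters and names are RefSeq's (GRCm38.p6), with 34741 probe sets matched by gene identifier. Alternatives were other normalizations, floors, filters and probe set choices, a fit without trend or on 2 groups, a block by tumor number, and leaving out single arrays.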

Additional observations from a re-analysis of the deposited data

How the results depend on the processing

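With limma, 0 genes passed an adjusted p of 0.05 under each of 16 alternatives, and the same held for p53R172H/+ against p53R172H/- tumors under these alternatives. The count of lower genes at an unadjusted p under 0.05, 681, was 1082 with no filter on dim genes, where 18193 genes were tested. With 1 array left out, the lower count ran from 347 to 1104 and the higher count, 578 with all arrays, from 373 to 755. Separated genes ran from 1222 to 1805 on the higher side and from 1335 to 2813 on the lower side, since fewer arrays have to be separated. All 4 counts were highest without p53R172H/+ tumor 3, and both counts by p were lower by over 1.5 times without p53R172H/+ tumor 1 or 2. The cause was not tested. Of 123 named genes followed through the alternatives, 118 kept their direction under all 16. The rest turned with 1 array left out: Mki67 ran from -0.12 to 0.21, Cdkn1a from -0.091 to 0.081, Ly6k from -0.33 to 1.11, Lgi2 from -0.79 to 0.31 and Atp2a1 from -1.06 to 0.10. The count of 118 is largely built in, as many genes were named for separation or a small p. A separated gene cannot turn when 1 array is left out, and leaving out a p53R172H/- array cannot alter this difference. Medians of 17 of 36 lists changed sign under some alternative. The replicate block, which takes the tumor number as a factor, gave 582 higher and 630 lower genes at an unadjusted p under 0.05 and changed no call. Deviations of same-numbered p53R172H/+ and p53-/- tumors correlated at 0.16, 0.24 and 0.09, so the numbers were not taken to pair the tumors. Signal over background is unknown without detection calls, and the 3 arrays of a group limit the precision.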
